A study of Sus scrofa with 61 samples.

Results

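The pyruvate dehydrogenase complex and the enzymes that switch it on and off were followed in the longissimus muscle of 61 pig fetuses near term. The members were all probes on a porcine oligonucleotide array that carry the name of 1 of 10 genes, either on the array or in the gene lists of the study: PDHA1, PDHB, DLAT, DLD, PDHX, PDK1, PDK2, PDK3, PDK4 and PDP1. This rule found 41 of the 60305 probes. There were 5 probes for PDHA1, 2 for PDHB, 3 for DLAT, 10 for DLD, 1 for PDHX, 3 for PDK1, 2 for PDK2, 3 for PDK3, 11 for PDK4 and 1 for PDP1. All 41 probes passed the filter on dim probes, which kept 42436 probes in all, and 34 of them were marked by the scanner software as well above background on every array. For each gene the probe with the highest mean signal was taken as its main probe, and the others were used to see whether they showed the same change.

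The complex sits in the mitochondrial matrix and turns pyruvate, the end product of glycolysis, into acetyl-CoA for the citric acid cycle. PDHA1 and PDHB encode the E1 subunits that decarboxylate pyruvate, DLAT the E2 core that transfers the acetyl group, DLD the E3 enzyme that reoxidises the lipoyl arm, and PDHX the protein that anchors E3 to the core. The kinases encoded by PDK1 to PDK4 phosphorylate the E1 alpha subunit and switch the complex off, and the phosphatase whose catalytic subunit is encoded by PDP1 switches it on again. In skeletal muscle PDK4 is known for its rise in fasting and whenever fatty acids replace glucose as fuel.

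The fetuses were purebred Large White (LW), purebred Meishan (MS), or crosses of both breeds. LWMS fetuses had a Meishan sow and a Large White boar, and MSLW fetuses had a Large White sow and a Meishan boar. At day 90 of gestation each genotype had 8 fetuses, and at day 110 there were 9 LW, 7 MS, 8 LWMS and 5 MSLW fetuses. All fetuses were male, so that the X-linked members PDHA1 and PDK3 came from the sow alone. Because semen of both breeds was pooled, purebred and crossbred fetuses shared a uterus, but which sow carried which fetus is not given in the sources used here. Littermates therefore count as separate fetuses below, and the p-values measure the spread between fetuses only.

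On each array between 34346 and 45683 probes were well above background (median 43016 at day 90 and 41318 at day 110), and no member spot was saturated. The arrays lay on 8 slides that each held 6 to 8 of the 8 groups. All 10 skeletal muscle markers examined were measured, among them ACTA1, CKM and DES, and the mean log2 signal of the list ranged from 16.32 to 16.68 over the 61 fetuses. The RNA came from whole muscle, so fewer cells of a type and less RNA per cell cannot be told apart. Of the muscle markers 6 rose and 3 fell between both ages, with a log2 change of -2.57 for the embryonic myosin MYH3. The 6 fibroblast markers (COL1A1, COL1A2, COL3A1, DCN, LUM and PDGFRA) all fell between both ages, with a median log2 change of -1.49, and their mean log2 signal ranged from 14.15 to 14.60 at day 90 and from 12.29 to 13.51 at day 110. At day 110, 5 of these 6 were lower in MS than in LW (median -0.99), and the list ranged from 12.29 to 12.61 in MS and from 13.02 to 13.51 in LW. With age 1 of 5 measured endothelial markers rose and 3 fell, as did 1 and 2 of 4 for red blood cells, 2 and 3 of 6 for fat cells, 0 and 1 of 4 for leukocytes, 1 and 0 of 3 for smooth muscle and 2 and 0 of 3 for Schwann cells and nerve. In MS against LW at day 110, 2 muscle markers were higher and 2 lower, 1 smooth muscle marker was higher and 1 lower (median of 3 markers -0.83), and 1 Schwann cell marker was higher. Of the fat cell, endothelial and red blood cell markers 1 each was lower, and no leukocyte marker was called. Of all kept probes 37.3% were called higher and 35% lower with age, and 13.7% and 15.2% in MS against LW at day 110. The part of these marker shifts in the changes of the 10 genes was not tested.

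What the array reads are 60-base stretches of each transcript. The following probes are printed as examples. The 3 PDHA1 probes gave 1 pattern while the main PDHA1 probe, not printed, gave another. The DLAT and DLD probes are not the main probes of those genes, and PDHX had only this probe. All sequences are written as on the array, from left to right, and the strand is not given in the sources used here.
PDHA1 A_72_P645767: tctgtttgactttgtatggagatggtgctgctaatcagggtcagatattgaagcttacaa
PDHA1 A_72_P086206: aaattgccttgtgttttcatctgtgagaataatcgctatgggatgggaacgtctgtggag
PDHA1 A_72_P513752: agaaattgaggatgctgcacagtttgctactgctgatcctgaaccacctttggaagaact
DLAT A_72_P468917: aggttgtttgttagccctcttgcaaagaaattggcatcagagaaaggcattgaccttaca
DLD A_72_P595344: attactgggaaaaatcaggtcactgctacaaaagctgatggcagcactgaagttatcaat
PDHX A_72_P155826: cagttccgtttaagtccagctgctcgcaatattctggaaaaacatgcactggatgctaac

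The kinases are close relatives, so it matters whether a probe can tell them apart. Aligned without gaps, a PDK1 probe and the main PDK2 probe shared 33 of 56 bases (58.93%), and the longest run they shared was 8 bases. Capitals mark the identical bases.
PDK1 A_72_P471686: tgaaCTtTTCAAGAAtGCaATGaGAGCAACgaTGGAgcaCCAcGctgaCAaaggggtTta
PDK2 A_72_P383353: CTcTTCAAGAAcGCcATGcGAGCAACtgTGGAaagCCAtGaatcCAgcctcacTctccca
PDK1 and PDK2 also each had a dim probe, shown because its signal was near background on many arrays. The PDK1 probe was well above background on 32 arrays and the PDK2 probe on 47. Whether these probes, PDHB O12377 and DLD O10194 lie on the strand of their gene's other probes was not settled. Their values are therefore not read as agreement between probes. They count among the 41 member probes but not among the 34 that were well above background on every array.
PDK1 O12681: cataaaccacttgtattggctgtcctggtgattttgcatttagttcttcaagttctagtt
PDK2 O11322: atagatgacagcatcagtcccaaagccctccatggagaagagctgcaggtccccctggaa

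Between day 90 and day 110 the transcripts of all 5 complex subunits, of 3 of the 4 kinases and of the phosphatase rose, and those of PDK3 fell. Averaged over the genotypes, 40 of the 41 probes changed at an adjusted p of 1% in limma, 38 upwards and 2 downwards. This stands against a background of 72.3% of all kept probes called, with 37.3% called higher and 35% called lower. The median log2 change was 1.65 over the member probes and 0.04 over all kept probes. The 38 include DLD O10194 and PDK1 O12681, which passed the filter on dim probes only through groups of day 110. Over the 34 probes that were well above background on every array, all 34 were called. The main probes of all 10 genes were called in each of the 4 genotypes, in the same direction.

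**Figure D1:**
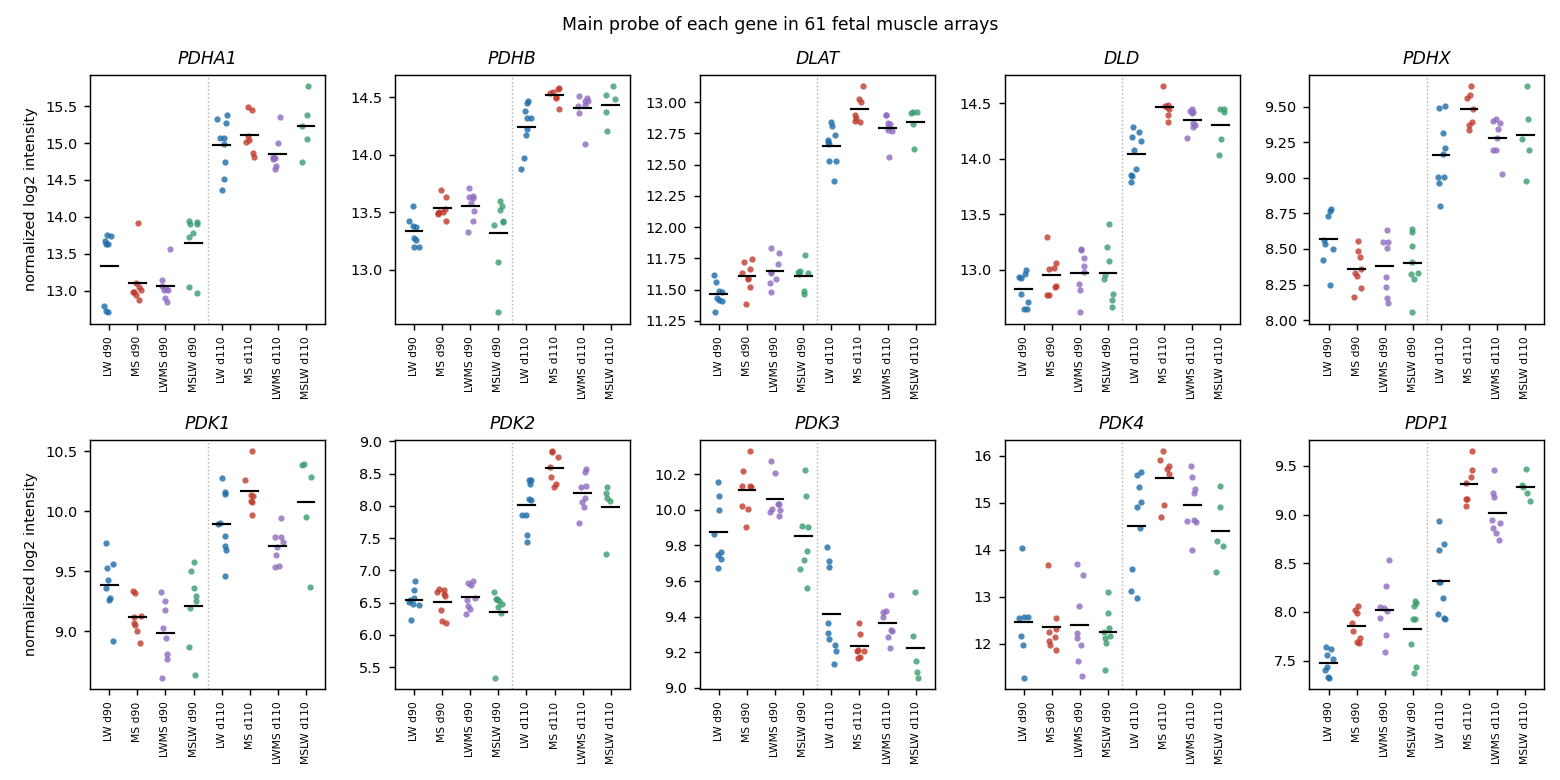
Log2 normalized signal of the main probe of each of the 10 genes (vertical axis) in each of the 8 groups (horizontal axis), with 1 point per fetus and a bar at the group mean. Day 110 lies above day 90 without overlap for PDHA1, PDHB, DLAT, DLD, PDHX and PDK2, and PDK3 is lower at day 110 in every genotype.

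In the E1 enzyme, the main PDHA1 probe ranged from 12.71 to 13.94 log2 units at day 90 (median 13.06, 32 fetuses) and from 14.36 to 15.78 at day 110 (median 15.01, 29 fetuses). The ages did not overlap, and the mean change was 1.75 (SE 0.088, 3.37-fold, limma adjusted p = 8.39e-26). The 4 other PDHA1 probes rose by 1.65 to 2.15 log2 units. PDHB, the E1 beta subunit, ranged from 12.63 to 13.71 at day 90 and from 13.88 to 14.60 at day 110. Again no fetus of day 90 reached the level of day 110, and the rise was 0.96 log2 units (SE 0.046, 1.95-fold, adjusted p = 4.89e-27). Its second probe, the dim O12377, rose by 0.75.

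DLAT, the acetyltransferase core, was the least variable member. Its main probe ranged from 11.32 to 11.84 at day 90 (31 fetuses, since 1 spot was marked as non-uniform and left out) and from 12.37 to 13.13 at day 110 (29 fetuses). The groups lay well apart, with a rise of 1.23 log2 units (SE 0.033, 2.34-fold, adjusted p = 2.66e-38). After group and slide means were removed, the residual SD of DLAT was 0.098, smaller than that of all but 2.34% of the kept probes, whose median was 0.25. DLD, which the complex shares with related dehydrogenases and with glycine cleavage, went from a range of 12.62 to 13.42 to one of 13.80 to 14.66, a rise of 1.36 (SE 0.047, 2.57-fold, adjusted p = 9.12e-34). The 9 other DLD probes had changes of 1.40 to 1.88. Among them O10194 (1.55) was well above background on 14 of 32 arrays at day 90 and 26 of 29 at day 110, so its day 90 level was near background. PDHX, the E3-binding protein, ranged from 8.06 to 8.78 at day 90 and from 8.80 to 9.65 at day 110. Its highest value at day 90 lay just below its lowest at day 110, and the mean rise was 0.88 (SE 0.049, 1.84-fold, adjusted p = 7.69e-24).

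Among the kinases, PDK4 showed the largest change of the 10 main probes. It ranged from 11.28 to 14.04 at day 90 (median 12.24, 31 fetuses) and from 12.98 to 16.10 at day 110 (median 14.96, 29 fetuses), and the ages overlapped. The mean rise was 2.49 log2 units (SE 0.19, 5.62-fold, limma adjusted p = 5.46e-18). The 10 other PDK4 probes rose by 2.52 to 3.25. PDK2, a kinase isoform expressed in many tissues, ranged from 5.34 to 6.84 and then from 7.25 to 8.85, without overlap. Its rise was 1.69 (SE 0.076, 3.23-fold, adjusted p = 4.24e-28), while the dim PDK2 probe rose by 0.52.

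PDK1, the kinase known as a target of hypoxia signalling, rose least among the 3 kinases that rose. It ranged from 8.62 to 9.73 at day 90 and from 9.37 to 10.50 at day 110, which overlapped, with a rise of 0.78 (SE 0.065, 1.72-fold, adjusted p = 1.53e-16). PDK3 went the other way, from a range of 9.56 to 10.33 to one of 9.06 to 9.79. The ages overlapped, and the signal fell by 0.67 on the log2 scale (SE 0.045, 1.59-fold lower, adjusted p = 3.41e-20). Of the 2 other PDK3 probes, A_72_P290514 fell by 0.70 and was called. A_72_P145371 differed by -0.17 (adjusted p = 0.324) and was the only member probe not called.

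PDP1, the catalytic subunit of the phosphatase, was measured with 1 probe. It ranged from 7.33 to 8.53 at day 90 and from 7.93 to 9.65 at day 110, with overlap, and rose by 1.19 log2 units (SE 0.064, 2.28-fold, adjusted p = 1.66e-24). In all, 19 of the 41 member probes, from 6 genes, were higher in each fetus of day 110 than in each of day 90, which held for 3.99% of all kept probes. The reverse held for 0 of the 41 and for 6.07% of all kept probes. Within each of the 8 slides the difference of ages had the same direction as overall for all 10 main probes.

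**Figure D2:**
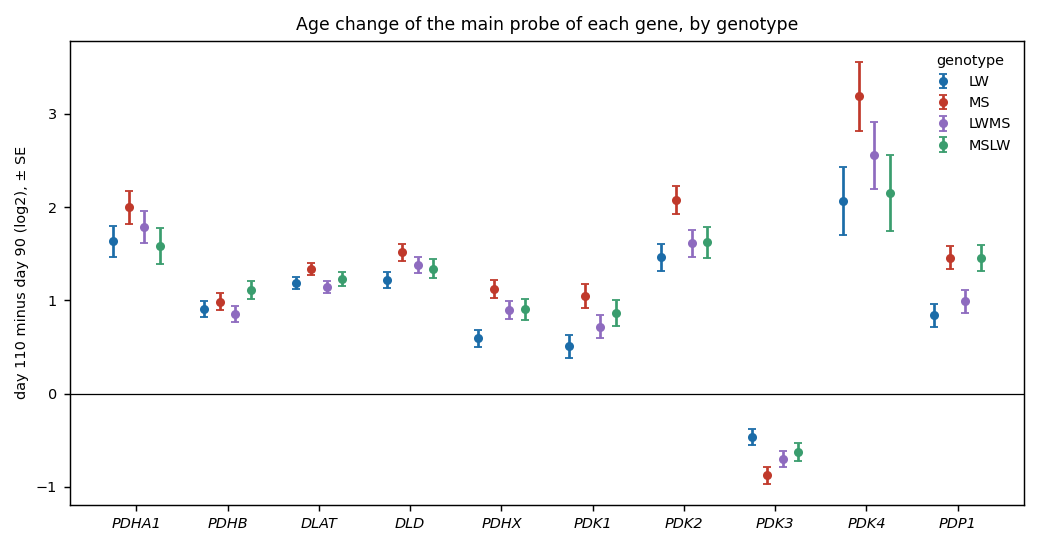
Log2 change from day 90 to day 110 with its standard error (vertical axis) for the main probe of each gene (horizontal axis), with 1 point per genotype. All genes but PDK3 lie above 0 in each genotype, from 0.51 for PDK1 in LW to 3.19 for PDK4 in MS.

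The age change was compared between the purebreds. In LW 36 of the 41 probes were called higher and 2 lower, where 45.3% of all kept probes were called (21.8% higher, 23.5% lower). In MS 38 were called higher and 2 lower, against 56.7% of all kept probes (28.6% higher, 28.1% lower). In LWMS 39 were called (background 50.9%) and in MSLW 37 (background 44.6%). The change was larger in size in MS than in LW for 40 of the 41 probes and for all 10 main probes, and also for 69.6% of all kept probes. The purebred contrasts share no fetuses with each other, but probes of 1 gene are not independent. Tested probe by probe, the difference in age change was called for 2 of the 41 probes, against a background of 5.95%, so the members' share (4.88%) was no larger than that of all probes. At an unadjusted p under 0.05 there were 24. The share of all kept probes at that cut was not computed, so this count has no background beside it. The same holds for the unadjusted counts below.

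The first of the 2 was PDHX, which rose by 0.60 in LW and by 1.12 in MS. At day 90 it had values of 8.24 to 8.78 in LW fetuses (median 8.55) and 8.16 to 8.56 in MS fetuses (median 8.34), and at day 110 values of 8.80 to 9.50 in LW (median 9.17) and 9.34 to 9.65 in MS (median 9.49). The MS median was thus lower at the first age and higher at the second. At day 90 the breeds overlapped, and the difference of -0.21 did not pass (limma adjusted p = 0.115). The difference in change was 0.53 (SE 0.13, limma adjusted p = 0.00531). The second was the DLD probe A_72_P595344, with a rise of 1.52 in LW and 2.13 in MS (difference 0.61, SE 0.16, adjusted p = 0.0056). The main DLD probe rose by 1.22 and 1.51, and there the difference of 0.30 did not pass (adjusted p = 0.108). PDP1 missed the threshold, with rises of 0.84 in LW and 1.46 in MS (difference 0.62, SE 0.17, adjusted p = 0.0121). PDK3 (difference -0.41, adjusted p = 0.0174), PDK1 (0.54, adjusted p = 0.0328) and PDK2 (0.62, adjusted p = 0.0383) missed it too. For PDK4 the rise was 4.18-fold in LW and 9.10-fold in MS, but the log2 difference of 1.12 had an SE of 0.52 (adjusted p = 0.142).

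At day 110 MS fetuses had more transcript than LW fetuses for several subunits, for PDK2 and for PDP1, whereas at day 90 only a dim PDHA1 probe passed. Of the 41 probes, 24 were called at day 110, all of them higher in MS, against 29% of all kept probes called (13.7% higher, 15.2% lower). Among the 24, PDK1 O12681 passed the filter on dim probes only through MS and MSLW at day 110. Over the 34 probes well above background on every array the count was 22, in a separate limma fit to such probes alone. There the main PDHB probe passed (adjusted p = 0.00869), which it did not in the main fit. At day 90 1 of the 41 was called, against 12.8%. The median log2 difference of MS from LW over the members was 0.10 at day 90 and 0.58 at day 110, while over all kept probes at day 110 it was 0.01. Among the main probes, those of DLAT, DLD, PDHX, PDK2 and PDP1 were called at day 110.

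**Figure D3:**
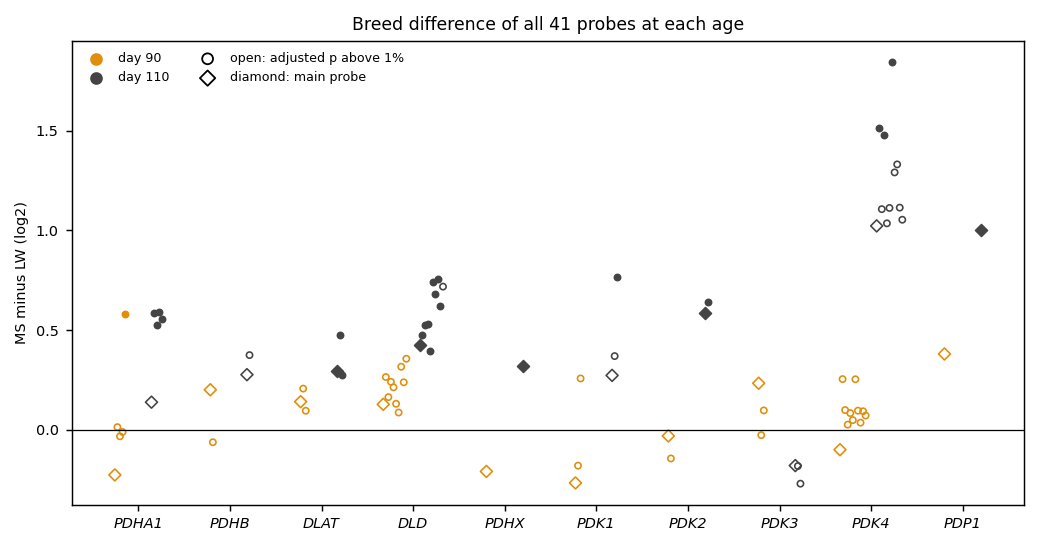
Log2 difference of MS from LW (vertical axis) for all 41 probes, by gene (horizontal axis) and by age (colour), with filled symbols for probes called at an adjusted p of 1% and diamonds for main probes. At day 90 the only filled symbol is a PDHA1 probe, and at day 110 38 of the 41 probes lie above 0 and 24 are filled.

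The first age is given for comparison. PDHB lay between 13.20 and 13.56 in LW (median 13.33) and between 13.42 and 13.70 in MS (median 13.50), DLAT between 11.32 and 11.61 (median 11.46) and between 11.38 and 11.75 (median 11.61), and DLD lay at 12.64 or above in LW (median 12.85) and between 12.77 and 13.29 in MS (median 12.93). The log2 differences of MS from LW were 0.20, 0.14 and 0.13, with adjusted p of 0.105, 0.111 and 0.365, and the breeds overlapped in each of these subunits. Among the kinases at day 90, PDK1 lay between 8.92 and 9.73 in LW and between 8.90 and 9.34 in MS (difference -0.27, adjusted p = 0.132), and PDK3 between 9.67 and 10.16 and between 9.90 and 10.33 (0.23, adjusted p = 0.0472). PDK2 differed by -0.03 (SE 0.15, adjusted p = 0.924) and PDK4 by -0.10 (SE 0.37, adjusted p = 0.901), so their standard errors were larger than their differences. The main probes of PDHA1 (-0.23), PDHX (-0.21), PDK1, PDK2 and PDK4 had the lower mean in MS at day 90 and the higher mean at day 110, while PDK3 had the reverse, and none of these day 90 differences passed.

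PDP1 differed most clearly. At day 90 it lay between 7.33 and 7.64 in LW (median 7.48) and between 7.68 and 8.06 in MS (median 7.84), a difference of 0.38 (SE 0.12) with an adjusted p of 0.0204. At day 110 it had values of 7.93 to 8.93 in LW fetuses (median 8.31) and 9.09 to 9.65 in MS fetuses (median 9.32). All 7 MS fetuses lay above all 9 LW fetuses, and the difference was 1.00 log2 unit (SE 0.12, limma adjusted p = 2.86e-09). The crosses were nearer to MS than to LW, with a range of 8.74 to 9.46 in LWMS (median 8.93) and single values of 9.14, 9.22, 9.28, 9.31 and 9.47 in MSLW. Their mean exceeded the mean of the purebreds by 0.33 (SE 0.094), which did not pass over all probes (adjusted p = 0.182). Within slides that held both breeds at day 110, MS was above LW in 6 of 6 slides, by 0.81 to 1.51. No second PDP1 probe was on the array to set beside these values.

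DLD was the other main probe whose breeds did not overlap at day 110. It lay between 13.80 and 14.28 in LW (median 14.08) and between 14.33 and 14.66 in MS (median 14.47), a difference of 0.43 (SE 0.091, adjusted p = 0.000129). LWMS ranged from 14.19 to 14.45 (median 14.37) and the MSLW values were 14.03, 14.18, 14.42, 14.45 and 14.45. Both crosses thus overlapped both breeds. Of the 9 other DLD probes, 8 were called, and all 9 differed by 0.40 to 0.76. Over all members, 4 of 41 probes had each MS fetus above each LW fetus, and 3.77% of all kept probes did. In the reverse direction there were 0 of 41, against 4.5%.

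DLAT had values of 12.37 to 12.84 in LW fetuses (median 12.68) and 12.84 to 13.13 in MS fetuses (median 12.90). The breeds met at the edge, with 8 of 9 LW fetuses below all MS fetuses, and the difference was 0.29 (SE 0.063, adjusted p = 0.000154). With the non-uniform spots kept, the DLAT call was lost at the same size (0.29, adjusted p = 0.361). Both other DLAT probes were called, at 0.28 and 0.48. PDHX, with the ranges given above, had 7 of 9 LW fetuses below all MS fetuses and differed by 0.32 (SE 0.095, adjusted p = 0.0056). PDHB lay between 13.88 and 14.47 in LW (median 14.32) and between 14.40 and 14.58 in MS (median 14.54). Here the difference of 0.28 (SE 0.089) had an adjusted p of 0.0102, just outside the threshold.

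PDK2 at day 110 had values of 7.45 to 8.40 in LW fetuses (median 8.09) and 8.29 to 8.85 in MS fetuses (median 8.60). In 6 of 9 LW fetuses it was below all MS fetuses, and the difference was 0.58 (SE 0.15, adjusted p = 0.00115). The dim PDK2 probe, whose strand was not settled, differed by 0.64 and was called. Only 5 of the 9 LW and 7 of the 7 MS arrays had it well above background. PDK1 lay between 9.46 and 10.27 in LW and between 9.97 and 10.50 in MS (difference 0.27, SE 0.13, adjusted p = 0.0787). Its dim probe O12681 was well above background on 1 of 9 LW and 6 of 7 MS arrays, so its fitted difference (0.77, adjusted p = 0.0076) stands against an LW level that was mostly not measured. For PDK3 LW ranged from 9.13 to 9.79 and MS from 9.17 to 9.37, with a difference of -0.18 (adjusted p = 0.0947).

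PDK4 was the most variable member. At day 110 it had values of 12.98 to 15.65 in LW fetuses (median 14.90) and 14.69 to 16.10 in MS fetuses (median 15.71). The breeds overlapped, with 4 of 9 LW fetuses below all MS fetuses and 4 of 7 MS fetuses above all LW fetuses. The mean difference of 1.02 (SE 0.36, 2.03-fold) did not pass (adjusted p = 0.0198), and 3 of the 10 other PDK4 probes, which differed by 1.03 to 1.84, did. LWMS ranged from 14.00 to 15.79 (median 14.92), and the MSLW values were 13.53, 14.08, 14.19, 14.90 and 15.35. The residual SD, with groups and slides removed, was 0.71, larger than that of 96.1% of the kept probes. Probes A_72_P576424 and O11548 carry the same 60 bases, and their difference had an SD of 0.072 over 60 arrays. Over the 55 pairs of PDK4 probes, these residuals had a Pearson's r of 0.68 to 0.99 (median 0.96). The probes share arrays, and some of them overlap in sequence.

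The 5 PDHA1 probes did not give the same breed difference. At day 110 the main probe lay between 14.36 and 15.38 in LW (median 15.06) and between 14.81 and 15.48 in MS (median 15.04), a difference of 0.14 (SE 0.17, adjusted p = 0.552). The 4 other probes, among them the dim O10316, all differed by 0.52 to 0.59 and were all called. A_72_P645767, printed above, had values of 11.10 to 12.15 in LW fetuses (median 11.80) and 12.14 to 12.71 in MS fetuses (median 12.25), a difference of 0.59 (SE 0.12, limma adjusted p = 7.64e-05). At day 90 the only member probe called between the breeds was the dim PDHA1 probe O10316. It lay between 3.68 and 5.25 in LW and between 4.91 and 5.66 in MS (difference 0.58, SE 0.14, adjusted p = 0.00153).

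Within each array the main PDHA1 probe was set against the mean of the 3 other bright probes, a comparison chosen after the values were seen and given without a test. At day 90 this log2 difference split into 2 sets, with 20 fetuses at or below 2.72 and 12 at or above 3.33, where the next largest gap was 0.18. At day 110 the largest gap lay between 2.29 and 2.61 (next largest 0.17), with 14 fetuses below and 15 above. The size of the difference has no meaning of its own, since probes differ in brightness, but its split ran along the sow. Fetuses of LW sows were above the gap in 11 of 16 cases at day 90 and in 12 of 14 at day 110, and fetuses of MS sows in 1 of 16 and 3 of 15. By boar the counts were 5 of 16 for LW and 7 of 16 for MS at day 90, and 9 of 17 and 6 of 12 at day 110. Each slide had fetuses on both sides, and the normalized values deposited by the authors put all 61 fetuses on the same side. With groups and slides removed, residuals of the main probe had a Pearson's r of -0.37, -0.17 and -0.21 with those of the 3 other bright probes, which had r of 0.89 to 0.93 among themselves. Residuals of the dim O10316 had r of only 0.11 with each of these 3, so its breed difference is weak agreement with theirs. What the 2 sets are was not tested.

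**Figure D4:**
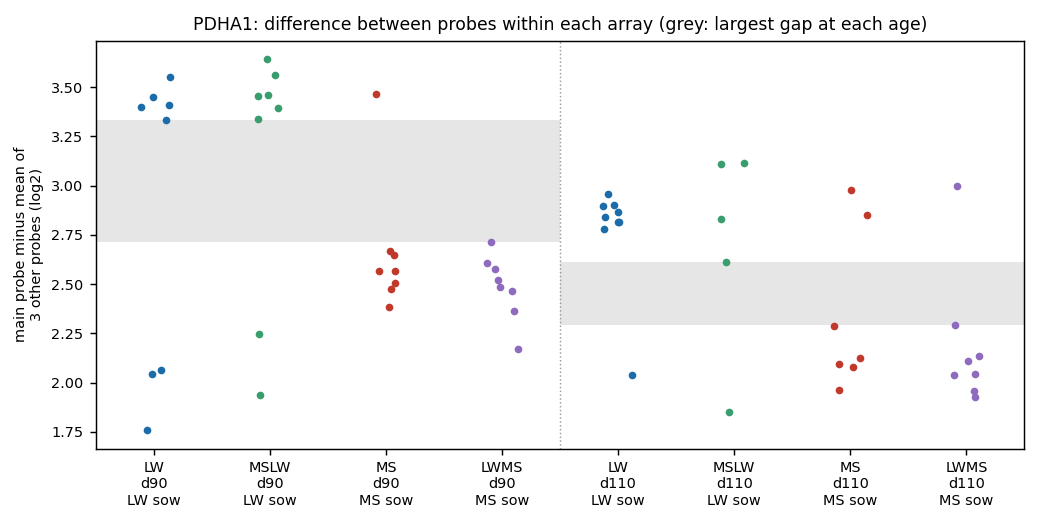
Log2 difference within each array between the main PDHA1 probe and the mean of 3 other bright PDHA1 probes (vertical axis) in the 8 groups (horizontal axis), with 1 point per fetus and a grey band over the largest gap at each age. Fetuses of LW sows (LW, MSLW) lie mostly above the band and fetuses of MS sows (MS, LWMS) mostly below it.

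The reciprocal crosses asked whether it matters which parent gave which genome. In limma 0 of the 41 probes differed between MSLW and LWMS at day 90 (background 0.5%, with 6 at an unadjusted p under 0.05) and 0 at day 110 (background 0.912%, with 1 unadjusted). Without moderation of the variances both counts were 0 as well. The main PDHA1 probe had the values 12.97 to 13.94 in MSLW (median 13.84) and 12.84 to 13.57 in LWMS (median 13.02) at day 90, a difference of 0.58 (SE 0.17, adjusted p = 0.104). At day 110 the difference was 0.38 (SE 0.19, adjusted p = 0.352), and the 4 other PDHA1 probes differed by -0.14 to -0.04 at day 90 and by -0.16 to -0.01 at day 110.

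Tested between the crosses, the age change was called in limma for 0 of the 41 probes (background 0.033%, with 1 at an unadjusted p under 0.05). The crosses differed from the mean of the purebreds in 0 probes at day 90 (background 0.0495%, with 3 unadjusted) and in 0 at day 110 (background 0.0778%, with 1 unadjusted). Each of these counts was 0 without moderation too. In the crosses the main subunit probes rose between both ages in both directions of the cross, with 1.79 in LWMS and 1.59 in MSLW for PDHA1, 0.85 and 1.11 for PDHB, 1.14 and 1.23 for DLAT, 1.38 and 1.34 for DLD, and 0.90 and 0.90 for PDHX. The kinases changed by 0.72 and 0.86 (PDK1), 1.61 and 1.62 (PDK2), -0.70 and -0.63 (PDK3), and 2.56 and 2.15 (PDK4). PDP1 rose by 0.99 in LWMS and by 1.46 in MSLW, and this pair differed by 0.47 (SE 0.19, adjusted p = 0.408). Each of these changes within a cross was called in limma. With the non-uniform spots kept, the rise of DLAT in MSLW was 0.77 and lost its call (adjusted p = 0.0162).

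In a model with both parental genotypes, 0 probes were called for the interaction of age with the sow's genotype (background 3.05%) and 0 for that with the boar's (background 0.462%). In each case 11 probes had an unadjusted p under 0.05, and without moderation both counts were 0. For PDP1 the interaction with the boar's genotype was 0.54 (SE 0.13, adjusted p = 0.0138). The same probe stands on the study's own list for this interaction in these fetuses, so this value is no independent evidence.

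By mean level, MS ranked highest at day 110 for 8 of the 10 main probes and LW lowest for 5 (PDHB, DLAT, DLD, PDHX and PDP1). These ranks were not tested, and the share of all kept probes with the same order was not computed. The main PDHA1 probe was in neither count, but all other PDHA1 probes, the dim O10316 included, had MS highest and LW lowest. In LWMS at day 110 PDHA1 lay between 14.65 and 15.35 (median 14.79), PDHB between 14.10 and 14.51 (median 14.45), DLAT between 12.56 and 12.90 (median 12.82) and PDHX between 9.03 and 9.41 (median 9.31). The LWMS range overlapped both purebred ranges for each of these 4 genes. PDK2 lay between 7.73 and 8.57 (median 8.21) and PDK3 between 9.22 and 9.52 (median 9.36). For the subunits the MSLW values at day 110 were 14.75, 15.05, 15.23, 15.38 and 15.78 for PDHA1, 14.21, 14.37, 14.48, 14.52 and 14.60 for PDHB, and 12.63, 12.83, 12.91, 12.92 and 12.93 for DLAT. Those of PDHX were 8.98, 9.20, 9.27, 9.41 and 9.64. For all of these 4 genes the MSLW range covered part of both the LW and the MS range. Among the kinases the MSLW values were 9.37, 9.95, 10.28, 10.38 and 10.39 for PDK1, 7.25, 8.08, 8.11, 8.19 and 8.29 for PDK2, and 9.06, 9.09, 9.15, 9.29 and 9.54 for PDK3. The highest of the PDK2 values lay just below the lowest of MS, and all LWMS values of PDK1 (9.54 to 9.94) lay below the lowest of MS as well. These comparisons of a cross with MS were picked after the values were seen and were not tested. The share of all kept probes without such overlap was not computed.

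Genes around the complex were read from lists chosen for their roles. All 10 measured genes that supply pyruvate or use it otherwise rose between both ages on average over the genotypes. Of all kept probes 37.3% were called higher and 35% lower in that comparison, with 45.3% called in LW and 56.7% in MS. In LW 8 of the 10 were called, with LDHA at -0.22 (adjusted p = 0.248) and PKM at 0.18 (adjusted p = 0.107) the others, and in MS all 10 were. For LDHA the age change differed between the purebreds by 1.00 (SE 0.24, adjusted p = 0.00281). Among the genes with the largest rises were LDHD, which oxidises D-lactate (log2 change 2.39, SE 0.15, adjusted p = 3.8e-21), GPT, which interconverts alanine and pyruvate (2.25, SE 0.11, adjusted p = 6.94e-27), and the monocarboxylate carrier SLC16A1 (1.33, SE 0.095, adjusted p = 3.62e-19). LIPT1, which attaches lipoate, rose by 0.62. Of 7 measured genes of the related dehydrogenases and of glycine cleavage, 6 rose and 1 fell. OGDHL rose by 1.99, and the branched-chain ketoacid dehydrogenase subunits BCKDHB and BCKDHA rose by 1.82 and 1.29. GCSH, the lipoate-carrying protein of glycine cleavage, fell by 0.18 on the log2 scale (adjusted p = 0.00108).

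Of 11 measured transcription regulators 7 rose and 4 fell, beside 37.3% and 35% of all kept probes. KLF15 (1.87), ESRRA (1.75) and FOXO3 (1.25) rose most. HIF1A, the oxygen-regulated factor, fell by 0.60, the glucocorticoid receptor NR3C1 by 0.54 and the thyroid hormone receptor THRA by 0.44 on the log2 scale. The median changes of these lists were 0.96 for pyruvate supply, 1.27 for the related dehydrogenases and 0.93 for the regulators, beside 0.04 over all kept probes.

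At day 110 MS exceeded LW for 5 of the 10 pyruvate genes, and the other 5 did not pass. Of all kept probes 13.7% were called higher and 15.2% lower in this comparison. LDHD was 2.13 log2 units higher (SE 0.30, adjusted p = 5.49e-08), the lactate dehydrogenase subunit LDHA 1.12 (SE 0.17, adjusted p = 2.65e-07) and the carnitine acetyltransferase CRAT 0.83 (SE 0.12, adjusted p = 6.55e-08). OGDHL (0.66), BCKDHA (0.40) and DLST (0.26), the E2 enzyme of the oxoglutarate dehydrogenase, were the 3 of 7 related genes called. Among the regulators ESRRA, named here after its value was seen, was higher in MS (0.33, adjusted p = 0.00118) and 3 were lower, with -0.85 for FOXO1, -0.48 for THRA and -0.37 for NR3C1. The list medians were 0.50 for pyruvate supply, 0.30 for the related dehydrogenases and -0.09 for the regulators, and 0.01 over all kept probes.

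PDPR, which encodes the regulatory subunit of the phosphatase, had a dim signal in LW. It had values of 2.12 to 4.99 in LW fetuses (median 3.54) and 4.46 to 7.77 in MS fetuses (median 5.54) at day 90, and from 2.89 to 5.93 (median 3.85) and 5.36 to 6.84 (median 6.55) at day 110. The fitted log2 differences were 2.08 (limma adjusted p = 0.000102) and 2.07 (SE 0.41, adjusted p = 5.1e-05). In LW the scanner software marked it as well above background in 2 of 8 fetuses at day 90 and in 4 of 9 at day 110, so that the LW level was measured in part of the fetuses only, and in MS it did so in all 8 and all 7.

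Finally the fetuses were compared within their groups. Over the 45 pairs of main probes, the residuals left after group and slide means were removed had a median Pearson's r of 0.12, with 28 pairs above 0, over the 60 or 61 arrays that both probes share. PDHB and DLAT (r = 0.69) and DLAT and DLD (r = 0.58) went together most closely, while PDK4 had r of -0.25 to -0.07 with the 5 complex subunits. PDHA1 enters here by its main probe, whose residuals had negative r with those of the other bright PDHA1 probes. These correlations are descriptions, since fetuses share litters, arrays share slides and probes share the normalization.

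**Figure D5:**
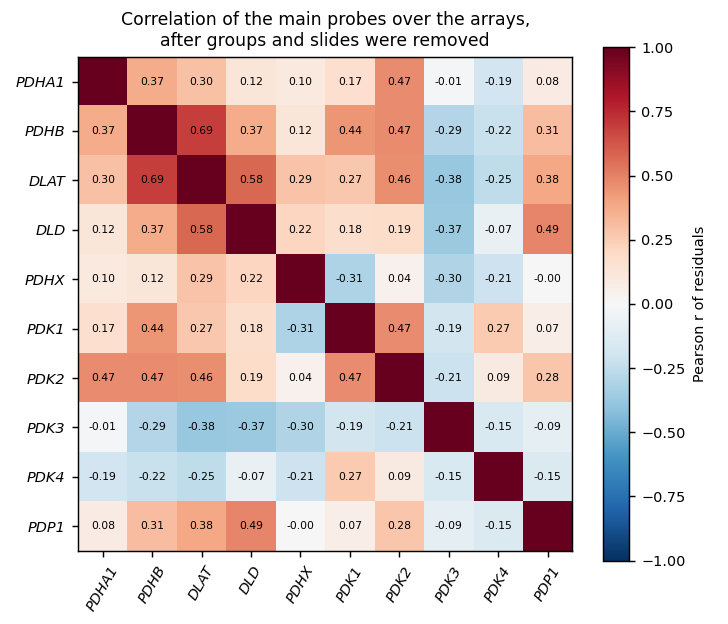
Pearson's r between the main probes of the 10 genes (both axes, colour and printed value), computed over arrays from residuals after groups and slides were removed. The highest value is 0.69, between PDHB and DLAT, and PDK3 and PDK4 have negative values with each of the 5 subunits.

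The genes whose residuals followed a member most closely were sought over all kept probes with a gene name. For PDK4 they were TXNIP (r = 0.85), SESN1 (0.79), GLUL (0.78), KLF15 (0.78) and ABHD4 (0.77), over 60 fetuses and 20292 probes searched. PDP1 had lower values, with ALR2 (0.65), PLBD1 (0.64), STRADB (0.63), ALDH2 (0.62) and SPCS1 (0.61). For the main PDHA1 probe they were MGST2 (0.63), NDUFA9 (0.58), DLAT through probe A_72_P468917 (0.55), GPT (0.55) and GBF1 (0.54). The closest followers of PDK4 thus had the highest r of these searches, and PDK4 was also the member with the largest spread between fetuses.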

How the data were processed

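The authors hybridised Cy3-labelled RNA of each fetus to a 1-colour array and deposited scanner intensity values (Agilent Feature Extraction 10.10.1.1), not normalized between arrays. They also deposited quantile-normalized log2 values for 44368 spots, used as an alternative. Controls and non-uniform spots (4 to 802 per array) were left out. The background-corrected intensity was quantile normalized, log2 transformed and averaged per probe. A probe was kept if 80% or more of the arrays in 1 or more groups had it well above background. limma 3.58.1 (R 4.3.3) fitted the 8 groups with no covariate, and, for the parental interactions, age and both parental genotypes. Benjamini-Hochberg adjustment ran over all kept probes, with a threshold of 1%. Scripts were tested on simulated data. All members are named, and of each list the up to 3 largest called age changes in each direction and the up to 3 largest called breed differences at day 110. Members, lists and tests were chosen with earlier results of these data known. Alternatives covered the signal column, background, scaling, filter, marked spots, slide, moderation and left-out fetuses. Precision is limited by the number of arrays. Genome positions were not used here. A gene of the lists is not reported here.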

Additional observations from a re-analysis of the deposited data

Results flagged for a closer look

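Of the 80 sets of main probe and group, 7 held 1 fetus far from the others by Dixon's criterion, which chance would give in about 1 of 20 sets. PDHA1 had a highest value of 13.92 in MS at day 90 (next 13.10) and of 13.57 in LWMS at day 90 (next 13.14). PDK4 had a highest value of 13.68 in MS at day 90 (next 12.54). PDHB had a lowest value of 14.10 in LWMS at day 110 (next 14.37), and the same fetus had the lowest DLAT value of 12.56 (next 12.77). PDK2 had lowest values of 5.34 in MSLW at day 90 (next 6.35), on an array with 752 non-uniform spots, and of 7.25 in MSLW at day 110 (next 8.08).

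From day 90 to day 110 MS fetuses rose more than LW fetuses in PDHX, by 0.53, and in the DLD probe A_72_P595344, by 0.61 log2 units, in limma's test of the interaction.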

How the results depend on the processing

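No paired analysis was possible because the fetus numbers in the labels are each used once, so the groups share none. Of the counts of called member probes, 185 stayed within 1.5 times the reported one under the alternatives and 10 did not. The 185 include many counts of 0 that stayed 0, as for the crosses and the maternal interaction. MS minus LW at day 90 went from 1 probe to 0 with normexp correction and to 0 with probes well above background on all arrays (34 probes). Probes whose age change differed by breed (MS minus LW) went from 2 probes to 4 with the median signal, 4 with the deposited log2 values, 7 with scaling to the 75th percentile, 4 with probes well above background on all arrays and 1 with marked spots kept. The interaction of age with the paternal genotype went from 0 to 1 with the median signal, 1 with the deposited values and 1 with normexp. For single genes, within-slide values included, 962 values kept their side of the threshold and direction, 12 passed it and 2 fell short of it, both for DLAT with marked spots kept. A further 7 within-slide values of MS minus LW at day 110, for the uncalled PDHA1, PDK1, PDK3 and PDK4, had the opposite sign. Of the 12, 5 were PDHB for MS minus LW at day 110 and 5 were PDP1 for the breed difference in age change. On 1 of the 6 slides with both breeds at day 110, PDHX was lower in MS by a log2 difference of -0.073. Scaling to the 75th percentile moved the median change of all probes in MS from 0.03 to 0.13. Leaving out 4 arrays with many marked spots or few bright probes, an alternative chosen after seeing the data, kept each count of called members within 1.5 times of that reported. The causes were not tested. Low signal limits the PDPR value and the dim probes of PDK1, PDK2 and DLD.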
